A study of Mus musculus with 9 samples.

Results

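The genes described here are 33 genes of glycolysis and the response to low oxygen: HIF-1α and 2 of the enzymes that mark it for destruction, the transporters that bring in glucose and send out lactate, the enzymes of each glycolytic step, and other known targets of HIF-1. They were matched by symbol, and the set was chosen with earlier results of these data known. All 33 symbols were found among the 24411 gene rows of the count files. In all, 11002 genes passed the filter on low counts, among them 32 of the 33. The remaining one, Eno1, was listed at 0 in every library. The cells were primary microglia, the macrophages of the brain, grown in mixed glial culture from ICR mouse pups aged 3 days, shaken off, plated for 24 h under air and CO2 and exposed to the agents for 4 h. One group of libraries, called R848 here, came from cells given 1 µM R848 (resiquimod, a synthetic compound that activates the Toll-like receptor TLR7). A second group, IFN-α, came from cells given 100 U/ml recombinant mouse IFN-α, a type I interferon. The third group, called combined, came from cells given both agents at those doses. Each group had 3 libraries. The design text also names a control group, which is not analysed here, so every value below compares one treatment with another and none gives a change from untreated cells. No group was cultured at low oxygen.

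Glycolysis breaks glucose down to pyruvate, and cells that turn the pyruvate into lactate and export it can run the pathway fast without using oxygen. The transcription factor HIF-1 raises most genes of the pathway. Its α subunit, encoded by Hif1a, is made all the time but is hydroxylated by the oxygen-dependent enzymes encoded by Egln1 and Egln3 and then degraded, so that it accumulates when oxygen falls. Egln3 and, to a lesser degree, Egln1 are themselves HIF-1 targets. In macrophages, ligands of Toll-like receptors are known to raise both glycolysis and HIF-1α protein at normal oxygen. Because HIF-1α is controlled largely at the protein level, the amount of its mRNA does not measure its activity, and no protein or metabolite was measured here.

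The largest group of members, 15 of the 32 tested, was higher with R848 alone than with IFN-α alone and lower when both agents were given than with R848 alone. The share of all genes with this joint pattern was not counted, and the R848 libraries enter both comparisons. The count of 15 alone therefore does not set the members apart from other genes. The backgrounds below are for single comparisons. Against IFN-α, 19 of the 32 tested members were higher with R848 and 3 were lower (Hk3, Pfkfb3 and P4ha1). Among all genes tested, 18.4% were higher and 19% lower in that comparison, and 37.4% differed in either direction, against 22 of 32 members. A gene was called where its adjusted p (edgeR's quasi-likelihood test, Benjamini-Hochberg over all genes tested) was under 0.05. When IFN-α was present together with R848, 17 members were lower than with R848 alone and 9 were higher, a total of 26. The backgrounds were 16.7% lower, 19.2% higher and 35.9% in either direction. Against IFN-α alone, the combined group had 11 members higher, 4 lower and 17 not called, against 18.5% of all genes higher, 14.7% lower and 33.2% in either direction. A test of any difference among the 3 groups called 30 of 32 members and 50.3% of all genes, and the 2 members it did not call were Slc2a3 and Pdk1.

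The median log2 fold change of the 32 members was 0.52 for R848 against IFN-α, where the median of all genes tested was 0.024. It was -0.30 for combined against R848 (all genes -0.033) and 0.17 for combined against IFN-α (all genes -0.0090). At 2-fold or more, 9 members were higher and 3 lower with R848 than with IFN-α (backgrounds 6.91% and 9.6%). In the combined group 4 were at least 2-fold higher and 8 at least 2-fold lower than with R848 (8.87% and 3.7%). Against IFN-α, 5 were at least 2-fold higher in the combined group and 0 at least 2-fold lower (6.95% and 4.38%). The 3 libraries of one group all lay above the 3 of the other for 19 members in R848 against IFN-α and all below for 3 (backgrounds 23% and 23.4%). These numbers were 9 and 17 for combined against R848 (22.6% and 22.4%) and 13 and 4 for combined against IFN-α (24% and 22.3%).

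The 3 pairwise comparisons share libraries, so they are set side by side and are not independent of each other. Levels are given as CPM, a gene's counts per 1000000 counts of its library after TMM scaling (edgeR's factors, set so that most genes do not differ), and each log2 fold change as value ± approximate SE. The scale of the combined group matters for both comparisons that use it. TMM factors were 0.832 to 0.892 in the combined libraries and 0.954 to 1.17 in the others, and scaling by library totals alone moved the median of all genes by -0.39 for combined against R848 and by -0.31 for combined against IFN-α. With totals alone, the combined group had 5 members higher and 20 lower than R848, and 8 higher and 6 lower than IFN-α. R848 against IFN-α still had 19 higher and 3 lower.

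**Figure D1:**
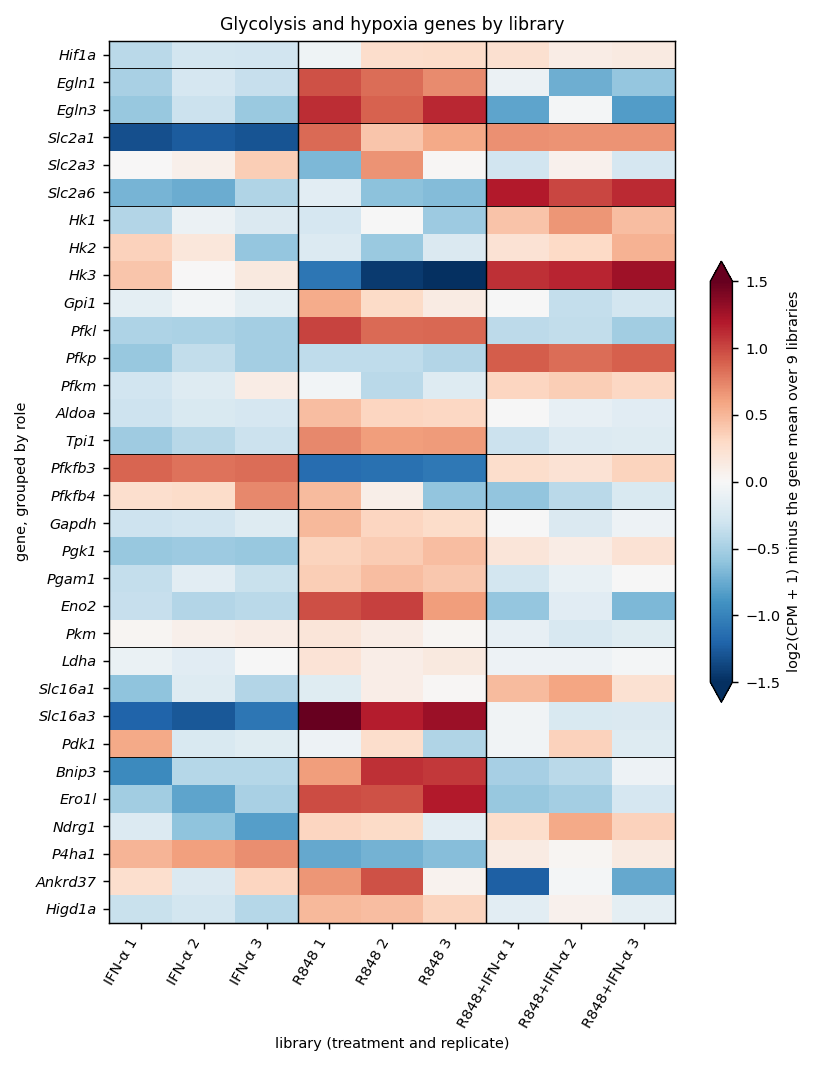
Level of the 32 tested genes in each of the 9 libraries, as log2(CPM + 1) minus the gene's mean over all libraries (red above, blue below, colours end at 1.5), with genes ordered by role and lines between roles. Slc16a3, Egln3, Pfkl, Bnip3 and Ero1l are reddest in the R848 libraries, whereas Hk3, Slc2a6 and Pfkp are reddest in the combined libraries and Pfkfb3 and P4ha1 in the IFN-α libraries.

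The promoter sequences of 6 members are given because they stand for both directions of change when IFN-α was added to R848: Egln3, Bnip3 and Eno2 were lower, and P4ha1, Hk3 and Slc2a6 were higher. These 6 were chosen after their values were seen. Each run holds the 250 bases before the RefSeq transcription start on GRCm38.p6, written 5′ to 3′ on the gene's own strand. Capitals mark the core of the hypoxia response element, the letters ACGTG or GCGTG that HIF-1 recognises, found on either strand, so that the reverse-strand forms read CACGT and CACGC.
Egln3, chr12:54203875-54204124, minus strand: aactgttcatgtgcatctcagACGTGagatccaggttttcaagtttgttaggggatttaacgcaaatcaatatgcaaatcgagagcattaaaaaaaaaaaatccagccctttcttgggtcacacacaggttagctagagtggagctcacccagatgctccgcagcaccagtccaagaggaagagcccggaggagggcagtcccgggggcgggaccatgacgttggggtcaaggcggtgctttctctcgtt
Bnip3, chr7:138909507-138909756, minus strand: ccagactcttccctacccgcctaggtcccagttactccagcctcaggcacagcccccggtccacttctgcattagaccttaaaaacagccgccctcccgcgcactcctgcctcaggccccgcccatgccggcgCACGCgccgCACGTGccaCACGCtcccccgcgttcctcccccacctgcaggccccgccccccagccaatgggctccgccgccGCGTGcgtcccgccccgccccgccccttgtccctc
Eno2, chr6:124769674-124769923, minus strand: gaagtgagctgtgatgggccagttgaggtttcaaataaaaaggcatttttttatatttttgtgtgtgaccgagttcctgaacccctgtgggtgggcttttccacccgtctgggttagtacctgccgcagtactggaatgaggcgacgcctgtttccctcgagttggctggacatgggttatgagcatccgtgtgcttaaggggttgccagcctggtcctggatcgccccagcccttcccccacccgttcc
P4ha1, chr10:59323046-59323295, plus strand: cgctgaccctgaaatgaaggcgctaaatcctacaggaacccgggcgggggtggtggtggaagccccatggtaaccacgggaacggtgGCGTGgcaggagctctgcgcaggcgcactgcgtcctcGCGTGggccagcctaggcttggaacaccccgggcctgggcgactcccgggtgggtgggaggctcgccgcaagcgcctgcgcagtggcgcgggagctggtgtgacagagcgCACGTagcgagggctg
Hk3, chr13:55021386-55021635, minus strand: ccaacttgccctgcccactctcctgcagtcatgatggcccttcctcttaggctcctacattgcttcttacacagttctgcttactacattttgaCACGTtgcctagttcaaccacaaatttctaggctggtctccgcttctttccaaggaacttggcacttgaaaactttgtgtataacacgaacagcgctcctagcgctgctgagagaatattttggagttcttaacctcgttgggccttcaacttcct
Slc2a6, chr2:27027999-27028248, minus strand: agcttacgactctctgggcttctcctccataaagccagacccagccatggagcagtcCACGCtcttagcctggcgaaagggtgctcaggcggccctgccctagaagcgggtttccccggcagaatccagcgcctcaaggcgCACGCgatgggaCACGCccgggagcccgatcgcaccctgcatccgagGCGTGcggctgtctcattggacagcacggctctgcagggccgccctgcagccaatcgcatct

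Both directions of change had the core in most of their windows. RefSeq windows were matched for 31 of 33 members, 1 of them by another symbol (Ero1l as Ero1a), which gave 43 windows. Ndrg1 and Slc2a3 were not matched. ACGTG was found in 19 of 31 members and in 18.5% of 27025 genes with such windows. GCGTG was found in 20 of 31 members and in 30.9% of genes. One or both were found in 28 of 31 members and in 41.5% of genes. Known HIF-1 targets were put in the set by choice, so this contrast is not a test. A gene counted where any of its windows had the letters, and the 27025 genes had 32851 windows. Those genes include ones too low to test here. By direction in combined against R848, 14 of 17 lower members, 9 of 9 higher members and 4 of 4 members that were not called had a core (Eno1 was not tested). Among the runs shown, Bnip3 had 5 matches counted by strand, with the palindrome CACGTG counted on each strand, whereas Eno2 had 0. A pair of half-sites of the interferon-stimulated response element, GAAANNGAAA, was found on either strand in 0 of 31 members and in 3.46% of genes. These matches describe the letters in the windows and were not tested for binding.

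Hif1a itself differed modestly between treatments. The gene (chr12:73901375-73947530 on GRCm38, GENCODE) was at 189.7, 208 and 205 CPM with IFN-α, 239, 300.4 and 303 CPM with R848 and 296, 272 and 275 CPM with both agents. All IFN-α libraries lay below the other 6. R848 was higher than IFN-α by a log2 fold change of 0.48 ± 0.096, adjusted p = 1.26e-04, and combined was higher than IFN-α by 0.48 ± 0.0963, adjusted p = 1.82e-04. For comparison, the median size of the log2 fold change over the 32 members was 0.66 for R848 against IFN-α and 0.38 for combined against IFN-α. Between combined and R848 the groups overlapped, and the log2 fold change was -0.00025, 95% interval -0.19 to 0.19, adjusted p = 0.998. With totals alone the difference of combined from IFN-α was no longer called (adjusted p = 0.318), and combined was lower than R848 (-0.39, adjusted p = 0.014), close to the shift of all genes under that scaling.

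Egln1 and Egln3 were high only in the group given R848 without IFN-α. Egln3 (chr12:54178981-54203860), which encodes PHD3 and whose promoter is shown above, was at 15.4, 18.4 and 15.5 CPM with IFN-α, 51.3, 44.1 and 52.2 CPM with R848 and 13, 22.8 and 12.6 CPM with both agents. Every R848 library was above 44 CPM and every other library below 23 CPM. The level with R848 was 2.99-fold that with IFN-α (log2 fold change 1.58 ± 0.179, adjusted p = 1.21e-08), and the combined group was lower than R848 by a log2 fold change of -1.67 ± 0.178, adjusted p = 5.00e-09. Egln1 (chr8:124908587-124949324), which encodes PHD2, the main oxygen-sensing hydroxylase, was at 23.1, 27.4 and 25.6 CPM with IFN-α, 64.8, 59.8 and 54.2 CPM with R848 and 30.9, 19.3 and 21.6 CPM with both agents. Again the R848 libraries stood clear of the other 6. Its log2 fold changes were 1.23 ± 0.154, adjusted p = 8.28e-08 for R848 against IFN-α and -1.33 ± 0.153, adjusted p = 2.46e-08 for combined against R848. Neither gene passed the test between combined and IFN-α. The log2 fold changes were -0.096, 95% interval -0.45 to 0.25, adjusted p = 0.715 for Egln1 and -0.090, 95% interval -0.52 to 0.34, adjusted p = 0.788 for Egln3.

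The glucose transporters followed separate patterns. Slc2a1, which encodes GLUT1, the basal glucose importer of most cells and a known HIF-1 target, was at 37, 38.9 and 37.7 CPM with IFN-α, 169, 125 and 139 CPM with R848 and 152, 150.0 and 150.1 CPM with both agents. The IFN-α libraries were the low ones, and R848 and combined overlapped. Log2 fold changes were 1.93 ± 0.119, adjusted p = 1.49e-14 for R848 against IFN-α and 1.99 ± 0.119, adjusted p = 1.76e-14 for combined against IFN-α. Between combined and R848 the value was 0.058, 95% interval -0.15 to 0.27, adjusted p = 0.702, and under totals alone it was -0.32 with an adjusted p of 0.0335. The combined libraries lay among the R848 libraries, whereas for Egln3 they lay below all of them.

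Slc2a6, which encodes GLUT6, a transporter found mainly in macrophages and other leukocytes, was high only when both agents were present. It was at 74, 71.7 and 88 CPM with IFN-α, 108, 78.4 and 76.6 CPM with R848 and 277, 242 and 264 CPM with both agents. The single-agent groups overlapped (log2 fold change 0.17, 95% interval -0.085 to 0.42, adjusted p = 0.31). Combined was 2.98-fold R848 (log2 fold change 1.57 ± 0.115, adjusted p = 1.42e-12) and 3.34-fold IFN-α (1.74 ± 0.118, adjusted p = 3.48e-13). Slc2a3, which encodes the neuronal-type transporter GLUT3, was low and not called in any comparison, at 6.17, 6.49 and 8.23 CPM with IFN-α, 3.46, 10.4 and 6.19 CPM with R848 and 4.83, 6.45 and 5.00 CPM with both agents.

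All hexokinases, which trap glucose in the cell by phosphorylating it, were higher in the combined group than with R848. Hk3 (chr13:55005985-55021385), the form enriched in myeloid cells, was at 108, 81.1 and 89.6 CPM with IFN-α, 37.4, 29.3 and 26.5 CPM with R848 and 173, 179 and 196 CPM with both agents. The 3 groups did not overlap, with R848 lowest and combined highest. Log2 fold changes were -1.57 ± 0.133, adjusted p = 2.74e-11 for R848 against IFN-α, 2.55 ± 0.128, adjusted p = 1.23e-16 for combined against R848 and 0.98 ± 0.115, adjusted p = 3.87e-08 for combined against IFN-α. Hk1, the widely expressed form that sits on mitochondria, was at 7.71, 10.1 and 9.18 CPM with IFN-α, 8.93, 10.7 and 7.07 CPM with R848 and 14.9, 17.6 and 15.2 CPM with both agents. Its combined libraries lay above all others, by 0.83 ± 0.216, adjusted p = 0.00306 against R848 and 0.80 ± 0.222, adjusted p = 0.00538 against IFN-α, and neither was called with totals alone (0.103 and 0.0911 as adjusted p). Hk2, the form usually induced by HIF-1, was at 26.2, 23.1 and 13.3 CPM with IFN-α, 17.6, 13.5 and 17.4 CPM with R848 and 23.8, 25.4 and 29.6 CPM with both agents. It was called only in combined against R848 (0.72 ± 0.198, adjusted p = 0.00509), and that call was lost without combined replicate 3 (adjusted p = 0.0605) and with totals alone (adjusted p = 0.161). R848 and IFN-α overlapped for Hk2 (log2 fold change -0.34, 95% interval -0.77 to 0.086, adjusted p = 0.213), and without IFN-α replicate 3 it was lower with R848 (-0.60, adjusted p = 0.0211).

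Phosphofructokinase, which commits sugar to glycolysis, is encoded by 3 genes, and these split. Pfkl, the liver-type form, was at 108, 108 and 105 CPM with IFN-α, 305, 270.5 and 273 CPM with R848 and 114, 116 and 104 CPM with both agents. Only the R848 libraries were high. Log2 fold changes were 1.4 ± 0.0949, adjusted p = 1.62e-13 for R848 against IFN-α and -1.35 ± 0.0941, adjusted p = 4.49e-13 for combined against R848, and combined against IFN-α was 0.052, 95% interval -0.15 to 0.25, adjusted p = 0.732. Pfkp, the platelet-type form, was at 69, 79.3 and 72.2 CPM with IFN-α, 78.9, 78.7 and 75.8 CPM with R848 and 195, 185 and 193 CPM with both agents. Here only the combined libraries were high, at 2.45-fold R848 (log2 fold change 1.3 ± 0.0965, adjusted p = 2.02e-12) and 2.6-fold IFN-α (1.38 ± 0.0986, adjusted p = 1.12e-12). In Pfkp, 16% of 101-base windows along its longest annotated transcript also occur in another annotated gene, Pitrm1. Matches on either strand were included, so its counts may be less certain, but the effect on reverse-strand counts was not tested. Pfkm, the muscle-type form, was at 21.6, 23.1 and 28.8 CPM with IFN-α, 25.6, 19.8 and 23 CPM with R848 and 33.5, 34.4 and 33.2 CPM with both agents, with combined above R848 by 0.56 ± 0.156, adjusted p = 0.00567 and above IFN-α by 0.45 ± 0.158, adjusted p = 0.0286. The second of these calls for Pfkm was lost in 8 of 19 alternatives, and the first with totals alone (adjusted p = 0.422).

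The other enzymes of upper glycolysis shared the pattern of Pfkl at smaller size. Tpi1, triosephosphate isomerase, was at 187, 202 and 217 CPM with IFN-α, 445, 419 and 423 CPM with R848 and 216, 236 and 236 CPM with both agents, so the R848 libraries were again the only high ones. It was higher with R848 than with IFN-α by 1.09 ± 0.0876, adjusted p = 9.43e-12 and lower with both agents than with R848 (-0.90 ± 0.0867, adjusted p = 5.74e-10). Aldoa, the main aldolase outside liver and brain, was at 837, 886 and 874 CPM with IFN-α, 1431, 1299 and 1286 CPM with R848 and 1038, 952 and 926 CPM with both agents, with log2 fold changes of 0.63 ± 0.0799, adjusted p = 1.11e-07 and -0.46 ± 0.0796, adjusted p = 2.46e-05 in those comparisons. Gpi1, glucose-6-phosphate isomerase, was at 167, 178 and 166 CPM with IFN-α, 270.2, 225 and 199.6 CPM with R848 and 183, 144 and 152 CPM with both agents, with 0.44 ± 0.108, adjusted p = 0.00135 and -0.54 ± 0.108, adjusted p = 1.82e-04. None of these 3 passed the test between combined and IFN-α, with log2 fold changes of 0.18 ± 0.0889 for Tpi1, 0.17 ± 0.0799 for Aldoa and -0.097 ± 0.11 for Gpi1, although every combined library lay above every IFN-α library for Aldoa, which was called without R848 replicate 1 (adjusted p = 0.0416). For Gpi1 the call appeared with totals alone (adjusted p = 0.0172).

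Pfkfb3 ran opposite to most of the set. Its product makes fructose 2,6-bisphosphate, the strongest activator of phosphofructokinase, and it is a known HIF-1 target. It was at 258, 248 and 251 CPM with IFN-α, 63.4, 64.2 and 66.3 CPM with R848 and 169, 164 and 177 CPM with both agents. The groups did not overlap, with IFN-α highest, combined between and R848 lowest. R848 was lower than IFN-α by a log2 fold change of -1.96 ± 0.0959, adjusted p = 5.52e-17. Combined was higher than R848 by 1.4 ± 0.0966, adjusted p = 3.58e-13 and lower than IFN-α (-0.57 ± 0.0891, adjusted p = 6.30e-06). Pfkfb4, which encodes a related enzyme, was low, at 13.5, 13.7 and 19 CPM with IFN-α, 15.8, 12 and 7.07 CPM with R848 and 7.06, 8.17 and 9.41 CPM with both agents. It was called only in combined against IFN-α (-0.88 ± 0.256, adjusted p = 0.00796), a call lost without IFN-α replicate 3 (adjusted p = 0.0814), while without R848 replicate 1 it was also lower with R848 than with IFN-α (adjusted p = 0.0179) and without R848 replicate 3 lower in combined than with R848 (adjusted p = 0.0267).

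**Figure D2:**
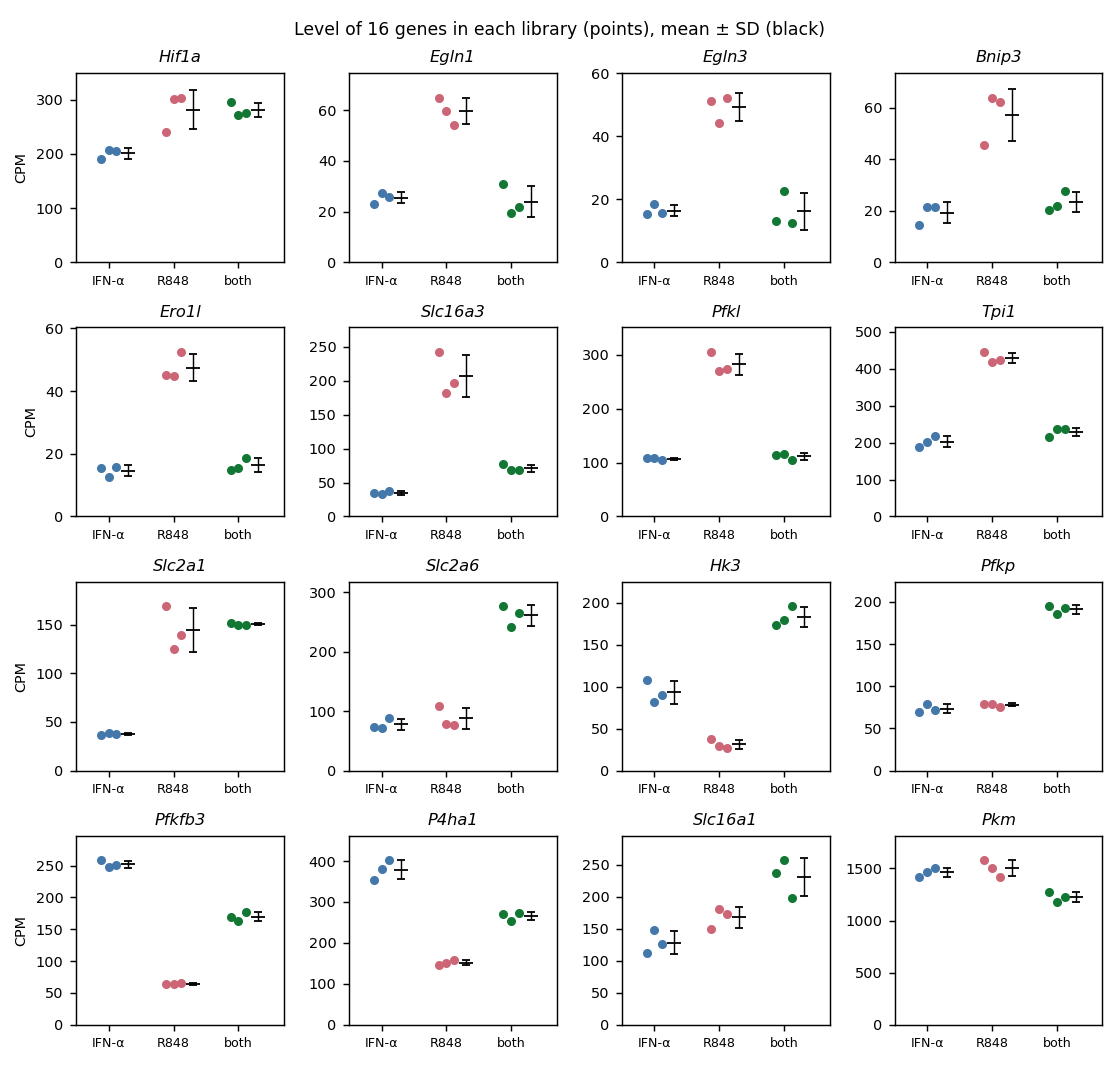
Level in CPM (linear axes from 0) of 16 members in each library (points) with the mean and SD of 3 libraries in black, for IFN-α, R848 and both agents. In Egln1, Egln3, Bnip3, Ero1l, Slc16a3, Pfkl and Tpi1 the R848 libraries are the highest, in Slc2a6, Hk3, Pfkp and Slc16a1 the combined libraries are the highest, and in Pfkfb3 and P4ha1 the R848 libraries are the lowest.

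Of the 5 tested members in lower glycolysis, which turns triose phosphates into pyruvate, 4 were higher with R848 than with IFN-α and all 5 were lower with both agents than with R848. Eno2, the neuron-type enolase and a known HIF-1 target, was at 18.1, 16.9 and 17.4 CPM with IFN-α, 46.7, 48.5 and 36.6 CPM with R848 and 15.2, 20.6 and 14.2 CPM with both agents. The R848 libraries stood above the other 6, and its promoter run above had 0 cores. Its log2 fold changes were 1.33 ± 0.168, adjusted p = 1.11e-07 for R848 against IFN-α and -1.43 ± 0.167, adjusted p = 3.24e-08 for combined against R848. Pgk1, phosphoglycerate kinase, was at 218, 222 and 218 CPM with IFN-α, 409, 422 and 446 CPM with R848 and 369, 349 and 377 CPM with both agents. It was higher than IFN-α in both other groups, by 0.95 ± 0.0838, adjusted p = 6.21e-11 with R848 and 0.73 ± 0.0841, adjusted p = 2.59e-08 with both agents. The step down from R848 to combined was small (-0.22 ± 0.0817, adjusted p = 0.0353) and lost its call in 10 of 19 alternatives.

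The remaining genes of lower glycolysis had modest differences. Gapdh, the glyceraldehyde-3-phosphate dehydrogenase often used as a reference gene, was at 533, 546 and 581 CPM with IFN-α, 933, 829 and 801 CPM with R848 and 662, 571 and 629 CPM with both agents. It was higher with R848 than with IFN-α by 0.63 ± 0.0849, adjusted p = 3.77e-07 and lower with both agents than with R848 (-0.46 ± 0.0845, adjusted p = 5.97e-05). Pgam1, phosphoglycerate mutase, was at 87.1, 100.2 and 88 CPM with IFN-α, 145, 154 and 147 CPM with R848 and 92.2, 103 and 111 CPM with both agents, with 0.69 ± 0.102, adjusted p = 1.47e-06 and -0.53 ± 0.1, adjusted p = 8.39e-05. These counts are uncertain, because 78% of the 101-base windows of Gapdh, 67% of those of Pgk1 and 39.7% of those of Pgam1 also occur in other annotated genes, mostly processed copies, and the files list reads with several matches apart from the genes.

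Pkm, pyruvate kinase, was the 1 member called lower with both agents than with either agent alone, whereas with totals alone there were 4 (Ankrd37, Gpi1, Pfkfb4 and Pkm). It was at 1414, 1465 and 1506 CPM with IFN-α, 1578, 1506 and 1421 CPM with R848 and 1274, 1179.8 and 1223 CPM with both agents. The combined libraries were the lowest 3, with log2 fold changes of -0.29 ± 0.0771, adjusted p = 0.00324 against R848 and -0.25 ± 0.0772, adjusted p = 0.0111 against IFN-α. Across all genes 2.82% were below both single agents. The call for Pkm (adjusted p = 0.0299) was lost with no filter on low counts, without any one of the IFN-α replicates, without combined replicate 2 and without combined replicate 3, which left 0 such members each time. Eno1, the main enolase of most tissues, was listed at 0 on both strands in every library, and 58.8% of its 101-base windows occur in other annotated genes, mostly the near-identical copy Eno1b. Eno1b was at 30.8, 42.2 and 36.4 CPM with IFN-α, 95.3, 50.1 and 44.2 CPM with R848 and 60.2, 48.1 and 57.4 CPM with both agents, with R848 replicate 1 well above its group. No level of Eno1 can be given.

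Ldha differed little between groups, whereas the lactate exporter Slc16a3 had the largest fold change of any member between R848 and IFN-α. Ldha, lactate dehydrogenase A, was at 667, 637 and 712 CPM with IFN-α, 828, 768 and 795 CPM with R848 and 681, 679.9 and 701 CPM with both agents. R848 was above IFN-α by 0.25 ± 0.079, adjusted p = 0.0139, a call lost without IFN-α replicate 1 or 2 (adjusted p = 0.0519 and 0.0954). Combined was below R848 (-0.21 ± 0.0789, adjusted p = 0.0347), a call lost in 9 of 19 alternatives. Slc16a3 (chr11:120948480-120960868), which encodes MCT4, the lactate exporter of highly glycolytic cells, was at 34.3, 32.4 and 37 CPM with IFN-α, 243, 183 and 197 CPM with R848 and 77, 67.9 and 68.4 CPM with both agents. The groups did not overlap, with R848 highest, combined between and IFN-α lowest. Combined was lower than R848 (-1.55 ± 0.111, adjusted p = 7.60e-13) and higher than IFN-α by 1.03 ± 0.13, adjusted p = 1.61e-07, and R848 was 5.98-fold IFN-α (log2 fold change 2.58 ± 0.122, adjusted p = 2.43e-17).

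Slc16a1, which encodes MCT1, a monocarboxylate transporter that works in either direction, was at 112, 148 and 125 CPM with IFN-α, 150.1, 181 and 172 CPM with R848 and 236, 257 and 199 CPM with both agents. It was highest with both agents, by 0.45 ± 0.109, adjusted p = 0.0015 against R848 and 0.84 ± 0.112, adjusted p = 4.66e-07 against IFN-α. R848 exceeded IFN-α by 0.39 ± 0.113, adjusted p = 0.00677, which was not called without IFN-α replicate 1 (adjusted p = 0.067), and with totals alone combined against R848 was 0.062 (adjusted p = 0.732). Pdk1, which encodes a kinase that shuts the pyruvate dehydrogenase complex and is a known HIF-1 target in other cells, was at 17.7, 9.73 and 10.1 CPM with IFN-α, 10.9, 14.2 and 8.25 CPM with R848 and 11.2, 15 and 10.0 CPM with both agents. It was not called in any comparison.

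Together with Slc2a6, Hk1, Hk3 and Pfkp, Slc16a1 made up the 5 members higher with both agents than with either agent alone, against 7.33% of all genes. The adjusted p for being above both was 8.50e-12 for Slc2a6, 1.16e-11 for Pfkp, 1.47e-07 for Hk3, 0.0049 for Slc16a1 and 0.0155 for Hk1. Without combined replicate 2, and also with totals alone, 3 were left (Slc2a6, Hk3 and Pfkp). Hk1 was also lost with DESeq2 and without R848 replicate 3, IFN-α replicate 1 or IFN-α replicate 3. Slc16a1 was also lost with upper-quartile factors. Pfkm was added without R848 replicate 1 and without IFN-α replicate 3. The summed level of 11 astrocyte markers was also highest with both agents, at 2444 to 3505 CPM against 1164 to 1727 CPM in the other libraries, and combined replicate 2 was the highest. The sums of the other combined libraries, 2645 and 2444 CPM, also lay above those of every R848 and IFN-α library. The part of these markers in the result was not tested. In bulk libraries, fewer cells of a type and less RNA per cell cannot be told apart.

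Among the other HIF-1 targets, Bnip3 and Ero1l were high only with R848 alone, like Egln3. Bnip3, which encodes a mitophagy receptor, was at 14.6, 21.6 and 21.5 CPM with IFN-α, 45.8, 63.9 and 62.2 CPM with R848 and 20.4, 21.9 and 27.8 CPM with both agents, and Ero1l, an oxidase that forms disulfide bonds in the endoplasmic reticulum, was at 15.4, 12.6 and 15.8 CPM with IFN-α, 45.2, 44.7 and 52.5 CPM with R848 and 14.9, 15.5 and 18.8 CPM with both agents. For both genes all R848 libraries lay above the other 6. Log2 fold changes for Bnip3 were 1.56 ± 0.172, adjusted p = 7.18e-09 (R848 against IFN-α) and -1.25 ± 0.163, adjusted p = 2.49e-07 (combined against R848). For Ero1l they were 1.69 ± 0.164, adjusted p = 4.87e-10 and -1.5 ± 0.157, adjusted p = 3.37e-09. Combined and IFN-α did not differ by the test (0.30, 95% interval -0.085 to 0.69, adjusted p = 0.235 for Bnip3 and 0.19, 95% interval -0.19 to 0.58, adjusted p = 0.469 for Ero1l). Higd1a, a small mitochondrial protein gene, was at 20.0, 20.9 and 18.7 CPM with IFN-α, 36, 35.6 and 32.4 CPM with R848 and 22.7, 26.6 and 23 CPM with both agents, with 0.80 ± 0.155, adjusted p = 8.68e-05 and -0.53 ± 0.148, adjusted p = 0.00502. Windows shared with other genes made up 33.1% of Bnip3 and 32.3% of Higd1a.

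P4ha1 joined Pfkfb3 among the HIF-1 targets that were lowest with R848. It encodes a subunit of collagen prolyl 4-hydroxylase, and it was at 354, 382 and 402 CPM with IFN-α, 145, 151 and 158 CPM with R848 and 269.5, 254 and 273 CPM with both agents. The 3 groups did not overlap and had the order of Pfkfb3. Log2 fold changes were -1.32 ± 0.0888, adjusted p = 1.28e-13 for R848 against IFN-α, 0.81 ± 0.089, adjusted p = 9.74e-09 for combined against R848 and -0.51 ± 0.0863, adjusted p = 1.83e-05 for combined against IFN-α. Ndrg1, a stress-response gene, was at 8.87, 6.49 and 5.38 CPM with IFN-α, 13.2, 12.9 and 9.14 CPM with R848 and 12.6, 15.9 and 13.4 CPM with both agents, higher than IFN-α with both agents (1.02 ± 0.249, adjusted p = 0.00176) and with R848 (0.78 ± 0.253, adjusted p = 0.0147), the second call being lost in 5 of 19 alternatives. Ankrd37, a small ankyrin-repeat gene, was near the detection limit at 3.85, 2.52 and 4.11 CPM with IFN-α, 5.47, 6.93 and 3.24 CPM with R848 and 0.743, 3.01 and 1.4 CPM with both agents. It was lower with both agents than with R848 (-1.66 ± 0.45, adjusted p = 0.00415), and against IFN-α it was not called (-1.11, 95% interval -2.12 to -0.090, adjusted p = 0.0891) except without combined replicate 2 (adjusted p = 0.0386) and with totals alone (adjusted p = 0.018).

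**Figure D3:**
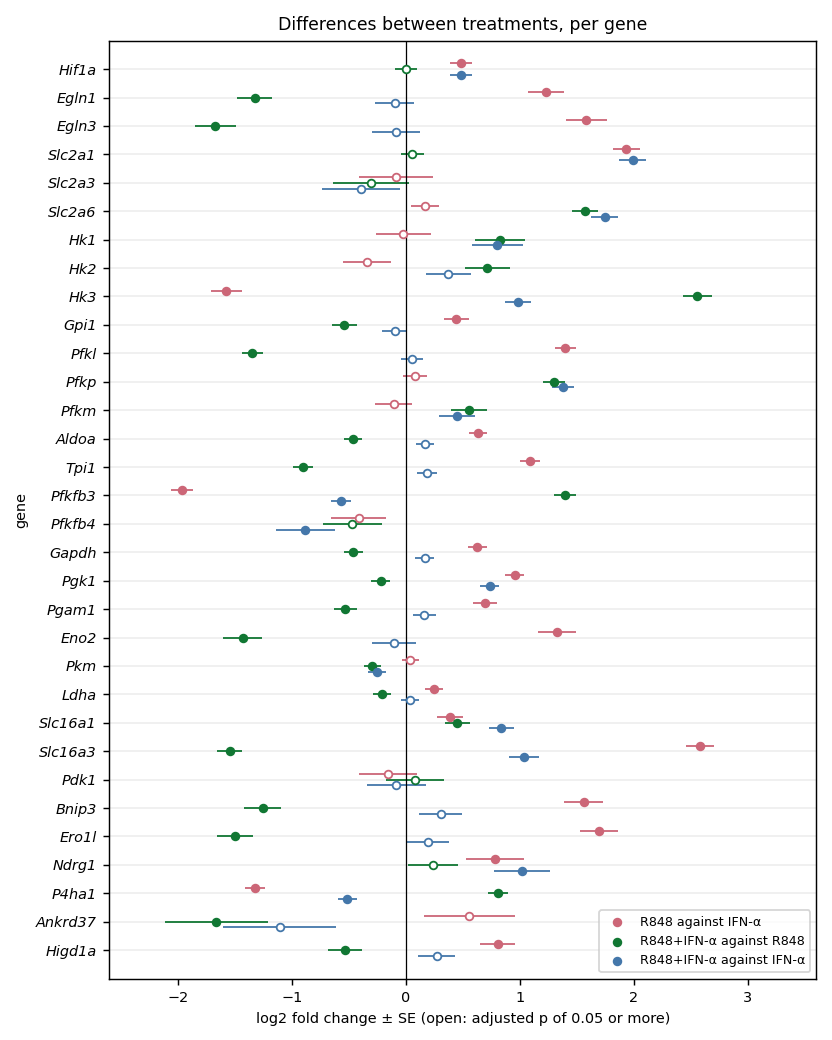
Log2 fold change (points) with its SE (bars) for each of the 32 tested members in the 3 comparisons, filled where the adjusted p was under 0.05 and open otherwise. Slc16a3 has the largest positive value for R848 against IFN-α at 2.58, and the comparison of combined with R848 runs from -1.67 for Egln3 to 2.55 for Hk3.

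The makeup of gene families was compared as levels per exon length, the only scale on which different genes are set against each other here. Within phosphofructokinase, Pfkl held 74.7% ± 0.518 of the family (SD, n = 3) with R848, 53.3% ± 2.01 with IFN-α and 35% ± 1.49 with both agents. Pfkp held 17.9% ± 0.957, 31.6% ± 1.59 and 51.9% ± 1.56. The platelet form was thus the larger part only with both agents, while the family total was 102 ± 6.26, 54 ± 1.52 and 85.6 ± 1.63 CPM per kb. In the hexokinases, Hk3 was the largest part in each group, at 66% ± 2.92 with R848, 83.2% ± 3.35 with IFN-α and 87.3% ± 0.43 with both. The hexokinase total was 14 ± 1.91, 33.3 ± 4.56 and 62.4 ± 4.03 CPM per kb in the same order, and the groups did not overlap.

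The transporter shares with R848 alone differed from those in the other groups. Slc2a1 held 51% ± 2.08 of the 3 glucose transporter genes with R848, 23.4% ± 2.16 with IFN-α and 27.3% ± 1.19 with both agents, and Slc2a6 held 47% ± 2.12, 73% ± 1.97 and 71.9% ± 1.36. Slc16a3 held 55% ± 6.00 of the pair of lactate transporters with R848, 21.3% ± 2.98 with IFN-α and 23.6% ± 2.46 with both. For both families the shares with both agents were nearer to those with IFN-α than to those with R848. The summed level of the family was nonetheless highest with both agents for the glucose transporters, at 169.7 ± 8.12 CPM per kb against 87 ± 14.1 with R848 and 49.8 ± 4.31 with IFN-α. These shares come from the counts tested above and were not tested again.

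**Figure D4:**
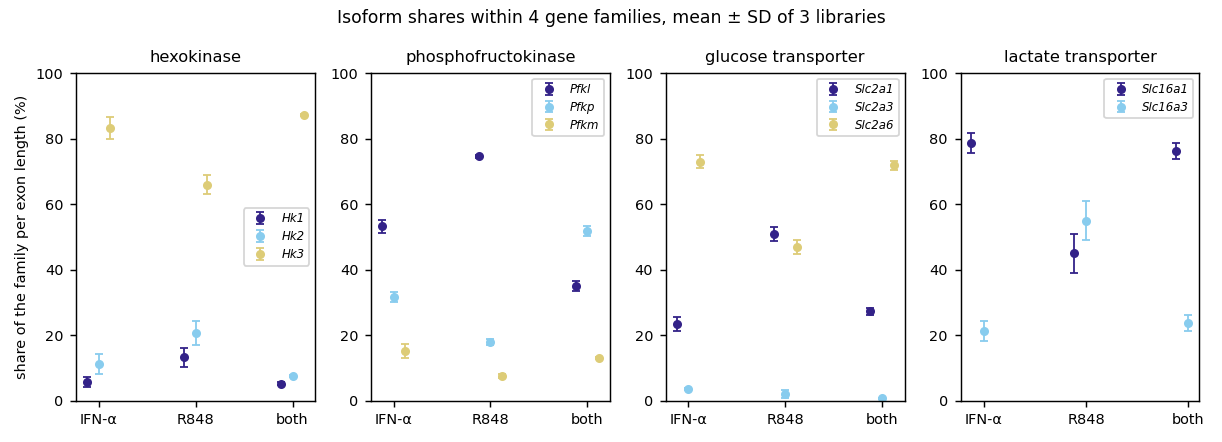
Share of each gene in 4 families, in percent of the family's summed level per exon length (mean and SD of 3 libraries), by treatment. Pfkl is the larger phosphofructokinase part with R848 (74.7%) and Pfkp with both agents (51.9%), and Slc16a3 exceeds Slc16a1 only with R848 (55.0%).

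Summed over the 16 members that encode enzymes from hexokinase to lactate dehydrogenase, the level was 6559, 6093 and 5979 CPM in the R848 libraries, 4470.0, 4577 and 4699 CPM in the IFN-α libraries and 5085, 4793 and 4940.3 CPM in the combined libraries. The R848 libraries were highest and the groups did not overlap. This sum adds CPM without regard to exon length and is dominated by a few abundant genes such as Pkm, Aldoa, Gapdh and Ldha. It includes Eno1, which was listed at 0 in every library, so the main enolase is missing from it.

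Of 17 tested partners and regulators of HIF-1, 6 were higher and 1 lower with R848 than with IFN-α, in all 41.2% (37.4% of all genes). In combined against R848, 2 were higher and 1 lower, in all 17.6% (35.9% of all genes), and in combined against IFN-α 4 were higher and 1 lower, in all 29.4% (33.2% of all genes). These counts were not stable. With totals alone they were 1 higher and 8 lower in combined against R848, and 1 higher and 5 lower in combined against IFN-α. The 6 fell to 2 with DESeq2 and to 1 without IFN-α replicate 3, and without that library the 4 fell to 2. Siah2, a ubiquitin ligase that targets prolyl hydroxylases, was at 5.4, 5.41 and 9.5 CPM with IFN-α, 16.4, 18.3 and 23 CPM with R848 and 24.2, 13.8 and 18 CPM with both agents, which was 1.48 ± 0.252, adjusted p = 1.65e-05 for R848 against IFN-α. Epas1, which encodes the related subunit HIF-2α, was lower with both agents than with R848 (-0.69 ± 0.176, adjusted p = 0.00253). Cul2, part of the ligase that removes hydroxylated HIF-1α, was lower with R848 than with IFN-α (-0.76 ± 0.123, adjusted p = 6.98e-06). The further hydroxylase genes Egln2 (0.69 ± 0.203, adjusted p = 0.00691) and Hif1an (0.55 ± 0.191, adjusted p = 0.0241) were higher with R848 than with IFN-α. Hif1an was also higher than IFN-α in the combined group (0.64 ± 0.191, adjusted p = 0.00925). These calls were lost in 1, 3 and 2 of 19 alternatives.

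Other genes known to respond to hypoxia moved in both directions. Of 33 tested, 14 were higher and 5 lower with R848 than with IFN-α, 6 were higher and 13 lower in combined than with R848, and 13 were higher and 7 lower in combined than with IFN-α. In all these were 57.6%, 57.6% and 60.6% of the list, against 37.4%, 35.9% and 33.2% of all genes. The list's medians were 0.37, -0.26 and 0.26 (all genes 0.024, -0.033 and -0.0090). With totals alone, 3 were higher and 19 lower in combined than with R848, and 7 higher and 10 lower in combined than with IFN-α. Adm, which encodes the vasodilator peptide adrenomedullin, was at 3.85, 3.96 and 4.11 CPM with IFN-α, 66.2, 45.3 and 55.7 CPM with R848 and 5.95, 7.74 and 8.61 CPM with both agents. The R848 libraries stood far above the others, and combined was lower than R848 (-2.87 ± 0.189, adjusted p = 1.10e-13). P4ha2, a sister gene of P4ha1, was at 2.7, 3.24 and 4.43 CPM with IFN-α, 18.4, 15.7 and 19.2 CPM with R848 and 4.46, 9.03 and 6.4 CPM with both agents. It was higher with R848 than with IFN-α (2.33 ± 0.278, adjusted p = 3.42e-08), whereas P4ha1 was lower.

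Nos2 and Cxcr4 had other patterns. Nos2, the inducible nitric oxide synthase, was at 0, 0.36 and 0.633 CPM with IFN-α, 23, 12.3 and 15.9 CPM with R848 and 439, 448 and 515 CPM with both agents, by far highest with both agents. It exceeded R848 in the combined group by 4.76 ± 0.146, adjusted p = 6.14e-22. Cxcr4, a chemokine receptor gene, was at 209, 202 and 213 CPM with IFN-α, 37.7, 39.7 and 50.4 CPM with R848 and 10.4, 9.03 and 13.2 CPM with both agents. It was lower in combined than with R848 (-1.91 ± 0.161, adjusted p = 3.54e-11) and lower with R848 than with IFN-α (-2.29 ± 0.118, adjusted p = 2.09e-16).

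Most glycolytic isozyme genes outside the set were too low to test. Of 17 other isozyme genes, 7 were tested: 0 were higher and 2 lower with R848 than with IFN-α, 2 were higher and 2 lower in combined than with R848, and 1 was higher and 4 lower in combined than with IFN-α. In all these were 28.6%, 57.1% and 71.4% of the 7, against 37.4%, 35.9% and 33.2% of all genes. Ldhb, the lactate dehydrogenase form that favours pyruvate, was lower with R848 than with IFN-α (-0.74 ± 0.107, adjusted p = 1.18e-06). Aldoc, the brain-type aldolase, was highest with both agents, at 36.6, 29.9 and 29.8 CPM with IFN-α, 20.2, 27.1 and 28.9 CPM with R848 and 44.2, 58 and 44.8 CPM with both agents. The summed level of the astrocyte markers was also highest with both agents, as given above, and the part of astrocyte RNA in Aldoc was not tested. Of 13 other transporter genes, 7 were tested, with 1 higher and 3 lower, 2 higher and 0 lower, and 0 higher and 1 lower in the same order of comparisons. These were 57.1%, 28.6% and 14.3% of the 7 transporter genes. With totals alone, 1 isozyme gene was higher and 4 lower, and 0 transporter genes higher and 2 lower, in combined than with R848. Bsg, the chaperone that carries MCT1 and MCT4 to the cell surface, was higher with R848 than with IFN-α (0.37 ± 0.0955, adjusted p = 0.00262).

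RNA of astrocyte marker genes was present beside that of microglia markers, and both moved with treatment. All 16 microglia markers were detected and tested; 1 was higher and 10 lower with R848 than with IFN-α, 7 were higher and 4 lower in combined than with R848, and 1 was higher and 11 lower in combined than with IFN-α. In all these were 68.8%, 68.8% and 75% of the list, against 37.4%, 35.9% and 33.2% of all genes. With totals alone, 3 microglia markers were higher and 6 lower in combined than with R848. Their summed level ran from 5017 to 5570.3 CPM with R848, from 8467 to 8907 CPM with IFN-α and from 5960.4 to 6737 CPM with both. Of 11 astrocyte markers, none at 0 in every library of a group, 9 were tested; 2 were higher and 3 lower, 9 higher and 0 lower, and 5 higher and 0 lower in the same comparisons. These were 55.6%, 100% and 55.6% of the 9. The sum of the 11, given above for both agents, ran from 1535 to 1727 CPM with R848 and from 1164 to 1474 CPM with IFN-α. Gfap, the defining astrocyte filament gene, was at 918, 671 and 649 CPM with IFN-α, 919.7, 844 and 914 CPM with R848 and 1207, 1829 and 1198 CPM with both agents. The 9 fell to 5 without combined replicate 2 or R848 replicate 2, to 4 with upper-quartile factors and to 3 with totals alone.

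Of tested oligodendrocyte markers (9), neuron markers (4), fibroblast and pericyte markers (8), endothelial markers (3) and other leukocyte markers (1), the numbers higher and lower with R848 than with IFN-α were 0 and 2, 1 and 1, 2 and 0, 0 and 2, and 1 and 0. In combined against R848 they were 0 and 0, 1 and 0, 2 and 0, 3 and 0, and 0 and 0. Against IFN-α they were 0 and 1, 1 and 0, 3 and 0, 1 and 1, and 0 and 0. Of all genes, 18.4% were higher and 19% lower with R848 than with IFN-α. In combined these shares were 19.2% and 16.7% against R848 and 18.5% and 14.7% against IFN-α. Over all libraries the summed level of the markers ran from 449.9 to 568 CPM for oligodendrocytes, 136 to 175 CPM for neurons, 203 to 384 CPM for fibroblasts and pericytes and 5.77 to 14.8 CPM for other leukocytes. The 8 endothelial markers summed to 17.3 to 20.7 CPM with R848, 50.3 to 65.1 CPM with IFN-α and 38.3 to 55.04 CPM with both agents, so the R848 libraries were the lowest. The endothelial marker Emcn and the leukocyte markers Cd79a, S100a9, Nkg7 and Ncr1 were at 0 in every library. The part of these markers in the results was not tested.

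Depth was modest. Counts assigned to genes ran from 2505941 to 6005578 per library, with combined replicate 3 the deepest and the other 8 at or below 3298567, and the ribosomal transcript Rn45s took 13.3% to 26.1% of them. The labels do not say whether libraries of a group came from separate cultures, so a p-value here measures only how libraries of a group scatter, which may be technical.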

How the data were processed

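The authors deposited, per the file headers and values, whole-number read counts per gene for each of 9 libraries, in unstranded, forward-strand and reverse-strand columns. Per the submitters' processing notes, CASAVA 1.8.2, Trimmomatic 0.33, STAR 2.5.1 and DESeq2 were used with build mm10. Its gene annotation was not given in the sources used here. Per the labels' protocols, ribosomal RNA was removed and strand-specific paired libraries of 101 cycles were made. The deposited files list reads with several matches apart from the gene counts.

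Reverse-strand counts were used, since forward-strand counts made up only 1.09% to 1.5% of both. Rows that name no gene stayed out, and reads in no gene were 39.3% to 44.4% of read pairs. With edgeR 4.0.16 in R 4.3.3, genes were filtered (filterByExpr, minimum count 10, minimum total 15), TMM factors were applied, and a model with 1 mean per group was fitted over all 9 libraries (robust quasi-likelihood, common biological coefficient of variation 0.0955). Calls are Benjamini-Hochberg adjusted p under 0.05 over 11002 genes. A member was above or below both single agents where the larger of its p-values, with one sign in both, passed after adjustment. CPM values are on TMM-scaled totals. Errors are SD for shares and family totals, and approximate SE (log2 fold change over the root of F) for log2 fold changes. Intervals are 95%. The procedure was tested on simulated counts.

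Positions and exon lengths come from GENCODE M21 on GRCm38, the assembly that mm10 names, and promoters from RefSeq on GRCm38.p6. The members and the other gene lists were chosen with earlier results of these data known. All members are named, and from each other list some of the up to 4 called genes per comparison with the largest change and at least 5 CPM in the higher group. Gfap, Eno1b and the markers at 0 were named outside this rule, with their values seen. Alternatives were other scalings (RLE, upper quartile, totals alone), DESeq2 1.42.0, no or a stricter filter, unstranded counts, no Rn45s, only the libraries of both groups compared, a replicate block, and each library left out. For the other lists these were added after seeing the data. Each library was counted as 1 sample. Chi-square per degree of freedom between libraries of a group was 1.94 to 12.1, on counts scaled by totals with Rn45s included. It does not show that they are independent samples. In all groups the pairs with replicate 1 had the larger values, 7.03 to 12.1, against 1.94 to 2.98 for replicates 2 and 3. The share of Rn45s was 22% in R848 replicate 1, against 16.9% and 14.8% in replicates 2 and 3. With IFN-α these shares were 26.1%, against 16.5% and 16%, and with both agents 13.3%, against 21% and 19.8%. The part of Rn45s in the chi-square values was not tested.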

Additional observations from a re-analysis of the deposited data

Results flagged for a closer look

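For 7 members the share of counts on the forward strand, which no comparison used, was above the highest share of any whole library, 1.5%. It was 14.8% for Ankrd37 (17 forward and 98 reverse counts over all libraries), 3.48% for Pfkm, 2.46% for Pfkp, 2.33% for Pfkfb4, 2.18% for Ndrg1, 1.62% for Hk2 and 1.52% for Hk1. With unstranded counts in place of reverse-strand counts, no member's call or direction changed. Groups of 3 libraries are too small for the search for outlying libraries that was used.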

How the results depend on the processing

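Under 19 alternatives, 1718 of 1820 member fold changes kept their direction and their side of the threshold, 44 lost a call, 9 gained one and 49 changed sign. None of the 49 was called as reported, and 1 was called after the change (Slc2a1 in combined against R848 with totals alone). Lost calls belonged to Ldha (11), Pgk1 (10), Pfkm (9), Ndrg1 (5), Hk1, Hk2 and Slc16a1 (2 each), and Hif1a, Pfkfb4 and Pkm (1 each). Counts that moved by over 1.5 times were, with totals alone, 5 members higher in combined than with R848 (9 as reported), 3 above both single agents (5) and 4 below both (1: Ankrd37, Gpi1, Pfkfb4 and Pkm). With no low-count filter 0 were below both. Leaving out 1 library gave 3 to 6 above both and 0 to 1 below both. Of 1596 list counts, 154 moved by over 1.5 times, 37 of them with totals alone. The cause was not tested.

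Sign changes with totals alone, in log2 fold change, were Hk1 0.050 in R848 against IFN-α; Slc2a1 -0.32, Pdk1 -0.31 and Ndrg1 -0.15 in combined against R848; and Pfkl -0.25, Aldoa -0.14, Tpi1 -0.13, Gapdh -0.14, Pgam1 -0.16, Ldha -0.28, Bnip3 -0.020, Ero1l -0.12 and Higd1a -0.042 in combined against IFN-α. With upper-quartile factors they were Hk1 0.027, then Slc2a1 -0.076 and Pdk1 -0.056, then Pfkl -0.031 and Ldha -0.051 in the same comparisons. Hif1a in combined against R848 was 0.016 with RLE factors, 0.010 with DESeq2, 0.0045 without Rn45s and 0.0055 with the replicate block. Leaving out 1 library gave ranges across 0 in R848 against IFN-α for Slc2a3 (-0.54 to 0.22), Slc2a6 (-0.027 to 0.27), Pkm (-0.013 to 0.078), Hk1 (-0.17 to 0.12), Pdk1 (-0.36 to 0.16) and Pfkm (-0.22 to 0.032). In combined against R848 this held for Hif1a (-0.093 to 0.059), Slc2a1 (-0.034 to 0.20), Slc2a3 (-0.62 to 0.15) and Pdk1 (-0.098 to 0.28). In combined against IFN-α it held for Pdk1 (-0.24 to 0.23), Ldha (-0.0050 to 0.076), Egln1 (-0.29 to 0.0075), Egln3 (-0.36 to 0.10) and Eno2 (-0.25 to 0.028).

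The labels do not say whether replicate numbers pair the libraries. Deviations of same-numbered libraries correlated from -0.105 to 0.064, and those of libraries with different numbers from -0.090 to 0.063. A fit with the replicate number as a block (the replicate block) left all counts of members as reported, 19 and 3, 9 and 17, and 11 and 4. Ankrd37 (98), Slc2a3 (179), Ndrg1 (314), Hk1 (323), Pdk1 (331) and Pfkfb4 (335) had the fewest counts over all libraries among the tested members, so depth limits them most.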

Other observations

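The next lists, of pathways that branch from glycolysis, do not overlap the members. Of all genes tested, 37.4% were called in R848 against IFN-α, 35.9% in combined against R848 and 33.2% in combined against IFN-α. In the pentose phosphate pathway, which makes NADPH and ribose, 3 of 10 tested genes were higher and 4 lower with R848 than with IFN-α, 2 higher and 5 lower in combined than with R848, and 0 higher and 5 lower in combined than with IFN-α. With totals alone the last were 0 and 8, and without IFN-α replicate 1 or combined replicate 2 the 5 fell to 3. H6pd, which starts the pathway inside the endoplasmic reticulum, was at 65.5, 67.4 and 82 CPM with IFN-α, 58.2, 53.8 and 53.4 CPM with R848 and 17.5, 18.1 and 20.8 CPM with both agents, lower with both agents than with R848 by a log2 fold change of -1.53 ± 0.145, adjusted p = 4.50e-10. Pgd, the cytosolic NADPH-producing dehydrogenase, was higher with R848 than with IFN-α (0.80 ± 0.0929, adjusted p = 2.14e-08) and lower with both agents than with R848 (-0.63 ± 0.0921, adjusted p = 2.10e-06). Prps2, which makes the activated ribose used for nucleotides, was lower with R848 than with IFN-α (-1.49 ± 0.152, adjusted p = 1.43e-09).

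In glycogen handling, 3 of 14 tested genes were higher and 5 lower with R848 than with IFN-α, 2 higher and 7 lower in combined than with R848, and 1 higher and 5 lower in combined than with IFN-α. With totals alone these were 3 and 2, 0 and 11, and 0 and 8. The 7 fell to 3 with DESeq2 and to 4 without R848 replicate 2, combined replicate 1 or combined replicate 3, and the 5 lower with R848 fell to 3 with DESeq2, with upper-quartile factors and without R848 replicate 2 or IFN-α replicate 3. Gys1, the glycogen synthase outside liver, was at 11.9, 17.3 and 16.1 CPM with IFN-α, 59, 53.8 and 46.9 CPM with R848 and 21.2, 19.8 and 17.8 CPM with both agents, so the R848 libraries were the high ones. It was lower with both agents than with R848 (-1.46 ± 0.155, adjusted p = 4.83e-09). Gyg, glycogenin, which primes new glycogen, was at 105, 99.5 and 98.1 CPM with IFN-α, 20.2, 21.4 and 19.5 CPM with R848 and 26.8, 30.5 and 29 CPM with both agents, and here the IFN-α libraries were the high ones (-2.31 ± 0.13, adjusted p = 1.85e-15 for R848 against IFN-α).

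At the entry of pyruvate to mitochondria, 17 genes were tested. Of these, 1 was higher and 4 lower with R848 than with IFN-α. In combined, 2 were higher and 1 lower than with R848, and 1 higher and 3 lower than with IFN-α. In all these were 29.4%, 17.6% and 23.5% of the list, below the shares of all genes. With totals alone, 10 were lower in combined than with R848 and 10 lower than with IFN-α. With upper-quartile factors these were 3 and 6, and without R848 replicate 1 they were 3 and 5. The 3 lower than with IFN-α fell to 1 with DESeq2 and without combined replicate 2 or 3. Pdk3, a kinase that shuts the pyruvate dehydrogenase complex, was at 33.9, 36.4 and 38 CPM with IFN-α, 7.2, 10.7 and 8.55 CPM with R848 and 33.5, 28.8 and 28.2 CPM with both agents. It was low only with R848 alone (-2.04 ± 0.182, adjusted p = 9.12e-11 against IFN-α), whereas Pdk1 was not called in any comparison. Gpd2, the mitochondrial glycerol-3-phosphate dehydrogenase, which passes electrons from cytosolic NADH to the respiratory chain, was at 43.9, 37.8 and 38.9 CPM with IFN-α, 164, 146 and 129 CPM with R848 and 133, 150.4 and 135 CPM with both agents. It was low only with IFN-α alone, and R848 exceeded IFN-α by 1.87 ± 0.116, adjusted p = 2.15e-14.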
